A study of Mus musculus with 5 samples.

Results

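The class I and class II genes of the mouse major histocompatibility complex (MHC), together with the genes that load class I with peptide and drive either class, were followed in RNA of whole kidneys from mice aged 8 weeks. Members were taken by symbol from the deposited expression table: every symbol that starts with H2- and a capital letter, other than the 2 H2-Ke symbols, plus Cd74, Ciita, B2m, Tap1, Tap2, Tapbp, Nlrc5 and Erap1. This gave 50 of the 23997 rows, made up of 32 class I heavy chain genes, 6 class I accessory genes and 12 class II genes. Values were FPKM, fragments scaled to transcript length and to the mapped fragments of the library, so levels of different genes are compared per length. The filter, a mean of at least 1 FPKM over the 5 libraries, was passed by 29 members (15 heavy chain, 6 accessory and 8 class II genes), and by 12640 rows in all. Of the 21 members below it, 6 were listed at 0 in all 5 libraries.

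There were 3 libraries labelled Uninduced control (control 0, 1 and 2) and 2 libraries labelled Pkd1 knockout (knockout 0 and 1), the latter titled SKO and called PkdTKO in the design text. Neither name is explained. The labels used here do not state the inducing agent, the promoter behind it, the alleles of the controls or the strain. The study asked how metalloproteinases take part in remodelling the basement membrane of kidney tubules, with Pkd1, the gene of the large membrane protein polycystin-1, lost to give cystic kidneys. Whether each library is a separate animal is not stated, and every p-value here measures the spread among these samples alone, which can be technical.

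MHC class I molecules sit on nearly all nucleated cells and show peptides from inside the cell to CD8+ T cells. Each is a heavy chain (H2-K and H2-D in their classical form, H2-Q, H2-T and H2-M in the others) paired with beta-2 microglobulin, and the peptides reach it through the TAP transporter with help from tapasin and the trimming enzyme ERAP1. Class II molecules are pairs of alpha and beta chains that present peptides from outside the cell to CD4+ T cells. They are made mainly by dendritic cells, macrophages and B cells, are chaperoned by the invariant chain Cd74 and exchange its last fragment for peptide with the help of H2-DM. Interferon gamma raises both classes, through the coactivator CIITA for class II and NLRC5 for class I.

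The libraries were not alike in other respects. The FPKM sums of the controls ran from 504914 to 507053, and those of knockout 0 and knockout 1 were 493226 and 462814. Log2 values of library pairs correlated across rows at 0.988 to 0.990 within the controls, 0.960 between the knockouts and 0.927 to 0.946 across groups. Xist, the RNA of the inactive X, was at 0.0275, 0.0222 and 0.0257 FPKM in the controls and 30.8 and 80.3 FPKM in the knockouts, and the Y-linked Ddx3y at 17.8, 18.6 and 18 FPKM in the controls and 7.30 and 0.00194 FPKM in the knockouts, so knockout 0 held both Xist and Y-linked RNA, and no comparison holds the sex of the RNA constant. Whether knockout 0 was pooled from animals of both sexes is not stated in the labels used here. Its part in any result cannot be told apart from that of the group. Pkd1 itself was at 3.22, 3.51 and 3.49 FPKM in the controls and 2.72 and 3.60 FPKM in the knockouts (adjusted p = 0.646). Of the kidney markers read as a check of the tissue, Slc22a6 of the proximal tubule and Aqp2 of the collecting duct were present in every library, whereas Lrp2 and Slc34a1 were listed at 0 in all 5 and Umod at 0 in the controls, although the kidney uses all of these. Zeros in this table can be failed estimates.

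Class II transcripts, the class I accessory transcripts and some class I heavy chain transcripts stood well above the controls in knockout 0 and close to them in knockout 1. In whole tissue, more cells of a type and more RNA per cell cannot be told apart. The 8 tested class II genes were at a median of 3.99 times the control mean in knockout 0 (range 3.13 to 12.6) and 1.15 times in knockout 1 (1.06 to 1.22). For the 6 accessory genes the medians were 2.28 and 1.12 times, and for the 15 class I heavy chain genes 1.68 and 0.985 times. With both knockouts set against the 3 controls, no member passed (0 of 29 higher and 0 lower, limma on log2(FPKM + 1), adjusted p under 0.05), where 2.73% of all tested rows were called higher and 3.62% lower. At an unadjusted p under 0.05, 5 members were higher (H2-Q5, Erap1, H2-M3, H2-Q4 and H2-T23) and 0 lower, against 12.5% of all rows higher, so that count stood near the background. Rescaling each library to a common sum (TPM) turned the split over all rows from 345 higher and 457 lower into 454 and 266.

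Set against the controls on its own, knockout 0 had 21 of the 29 tested members called higher and 0 lower, where 11.5% of all rows were called higher: 8 of 8 class II, 6 of 6 accessory and 7 of 15 heavy chain genes. Knockout 1 on its own had 0 members called at an adjusted p under 0.05, where 4.09% of rows were called higher, and 5 members at an unadjusted p under 0.05 (H2-T23, H2-Q5, H2-M3, H2-L and H2-Eb1), all higher, which stood near the 16.1% of all rows higher at that p. Such a fit assumes that the single library varies as the controls do, and it compares that library, not the condition. Ciita and H2-L, each under 1 FPKM in every other library, passed the filter only through knockout 0. Their places in the counts and class medians of knockout 0 are therefore no support for a difference there. By level, knockout 0 lay above every control in 25 members (34.2% of all rows did) and at or above 2 times the control mean in 18 (5.73% of all rows). It exceeded knockout 1 in 28 of the 29, all but H2-T23, where 47.9% of all rows did.

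**Figure D1:**
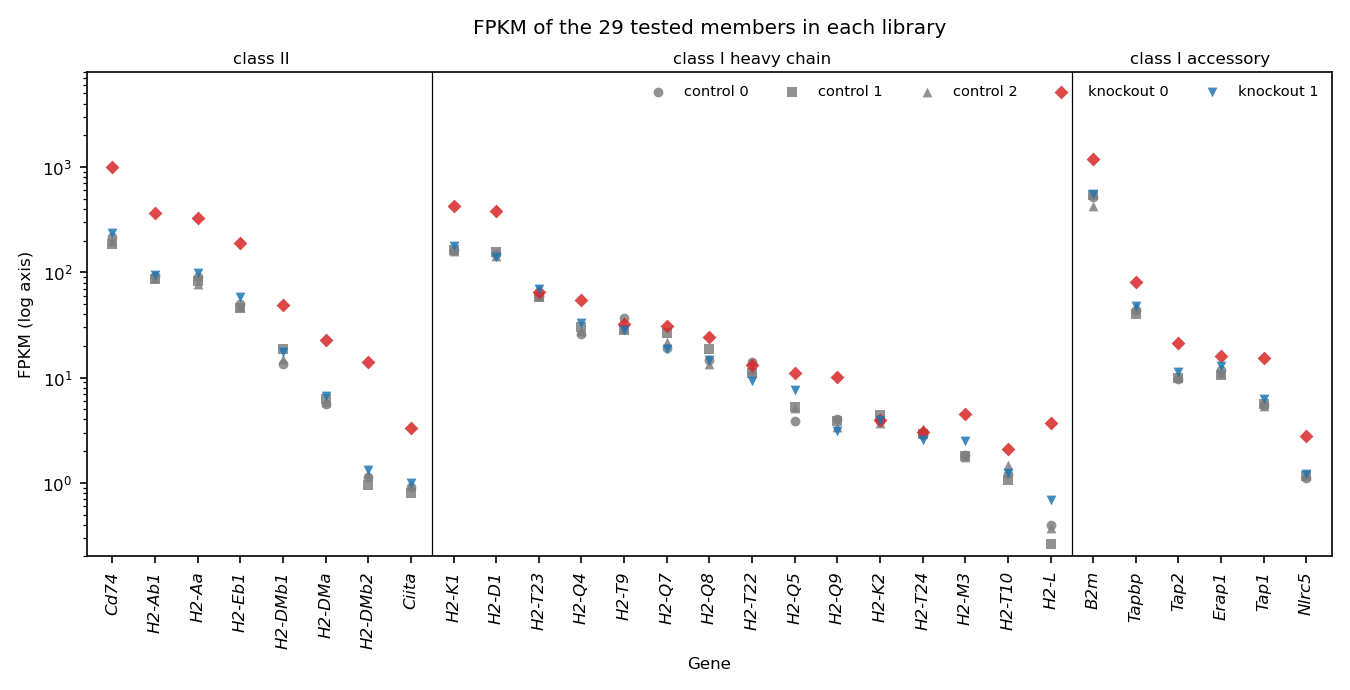
FPKM on a log axis (y) of the 29 tested members (x) in each of the 5 libraries, 1 mark per library, grouped as class II, class I heavy chain and class I accessory genes. The point of knockout 0 stands above those of the other 4 libraries in all 8 class II and all 6 accessory genes, while knockout 1 stays near the 3 controls.

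To show what the promoters of these genes share, the 300 bases from 250 before to 50 after the start site are given for every tested class II gene in the promoter table, for the classical class I genes, B2m and Tap1, and for H2-T23, a class I gene at 1.10 times the control mean in knockout 0. They are from RefSeq on GRCm38.p6, 5′ to 3′ on the gene's strand, and are RefSeq's, not read from these libraries. Capitals mark an X2-like TGANG with a Y-box core ATTGG that starts 15 to 35 bases later on the same strand, and any interferon-element match (TTTCNNTTC or TTCNNTTTC, either strand).
H2-Aa (chr17:34287774-34288073, minus strand): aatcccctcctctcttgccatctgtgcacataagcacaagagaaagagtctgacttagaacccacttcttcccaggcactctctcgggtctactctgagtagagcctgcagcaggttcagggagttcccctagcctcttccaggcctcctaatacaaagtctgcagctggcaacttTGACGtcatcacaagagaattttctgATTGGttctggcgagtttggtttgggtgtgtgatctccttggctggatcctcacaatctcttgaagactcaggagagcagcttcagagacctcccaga
H2-Eb1 (chr17:34305617-34305916, plus strand): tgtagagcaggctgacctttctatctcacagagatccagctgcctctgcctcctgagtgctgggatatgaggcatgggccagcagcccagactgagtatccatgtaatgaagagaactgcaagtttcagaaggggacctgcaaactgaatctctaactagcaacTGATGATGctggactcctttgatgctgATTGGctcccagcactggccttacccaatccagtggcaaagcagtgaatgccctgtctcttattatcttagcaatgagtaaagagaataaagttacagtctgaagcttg
H2-DMb1 (chr17:34152941-34153240, plus strand): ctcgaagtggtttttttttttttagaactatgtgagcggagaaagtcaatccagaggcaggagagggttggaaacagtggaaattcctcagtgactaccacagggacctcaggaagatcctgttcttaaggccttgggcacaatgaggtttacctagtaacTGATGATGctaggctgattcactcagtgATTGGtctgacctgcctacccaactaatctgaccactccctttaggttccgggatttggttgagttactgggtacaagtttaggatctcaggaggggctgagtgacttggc
H2-DMb2 (chr17:34144999-34145298, plus strand): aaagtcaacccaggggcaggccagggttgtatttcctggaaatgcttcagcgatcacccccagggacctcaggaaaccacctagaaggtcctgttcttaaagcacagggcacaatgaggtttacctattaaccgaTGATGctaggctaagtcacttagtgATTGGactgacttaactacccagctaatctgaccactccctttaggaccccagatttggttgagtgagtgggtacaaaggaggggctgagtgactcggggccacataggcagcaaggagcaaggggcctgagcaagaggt
H2-DMa (chr17:34122582-34122881, plus strand): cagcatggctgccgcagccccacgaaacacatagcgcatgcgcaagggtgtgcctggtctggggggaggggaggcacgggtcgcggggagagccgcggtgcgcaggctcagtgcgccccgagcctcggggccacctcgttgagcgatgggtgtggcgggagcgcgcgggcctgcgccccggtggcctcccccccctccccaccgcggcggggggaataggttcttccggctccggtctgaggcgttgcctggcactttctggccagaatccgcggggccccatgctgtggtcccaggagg
H2-K1 (chr17:34000284-34000583, minus strand): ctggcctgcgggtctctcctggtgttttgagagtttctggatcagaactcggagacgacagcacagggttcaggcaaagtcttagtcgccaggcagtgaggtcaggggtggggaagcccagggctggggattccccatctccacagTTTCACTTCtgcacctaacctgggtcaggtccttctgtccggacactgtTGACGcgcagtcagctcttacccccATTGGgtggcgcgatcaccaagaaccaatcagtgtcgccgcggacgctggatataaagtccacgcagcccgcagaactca
H2-D1 (chr17:35262844-35263143, plus strand): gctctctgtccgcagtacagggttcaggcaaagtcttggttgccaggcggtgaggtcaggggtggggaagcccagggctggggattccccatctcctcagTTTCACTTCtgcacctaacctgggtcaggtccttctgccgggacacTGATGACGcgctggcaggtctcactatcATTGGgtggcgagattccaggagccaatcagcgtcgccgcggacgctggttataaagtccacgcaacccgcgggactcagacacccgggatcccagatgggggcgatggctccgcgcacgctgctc
B2m (chr2:122147437-122147736, plus strand): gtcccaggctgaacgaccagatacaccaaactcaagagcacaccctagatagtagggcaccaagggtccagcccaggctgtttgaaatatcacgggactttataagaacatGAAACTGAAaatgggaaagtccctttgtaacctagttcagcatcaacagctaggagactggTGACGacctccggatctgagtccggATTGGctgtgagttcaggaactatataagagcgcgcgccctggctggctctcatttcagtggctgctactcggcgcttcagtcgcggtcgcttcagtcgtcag
Tap1 (chr17:34187306-34187605, plus strand): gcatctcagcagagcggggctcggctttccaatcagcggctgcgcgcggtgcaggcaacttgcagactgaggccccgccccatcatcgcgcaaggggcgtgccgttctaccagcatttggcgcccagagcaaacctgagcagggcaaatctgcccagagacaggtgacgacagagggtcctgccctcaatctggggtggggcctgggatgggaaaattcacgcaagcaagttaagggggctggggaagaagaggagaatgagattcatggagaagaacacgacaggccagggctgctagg
H2-T23 (chr17:36032652-36032951, minus strand): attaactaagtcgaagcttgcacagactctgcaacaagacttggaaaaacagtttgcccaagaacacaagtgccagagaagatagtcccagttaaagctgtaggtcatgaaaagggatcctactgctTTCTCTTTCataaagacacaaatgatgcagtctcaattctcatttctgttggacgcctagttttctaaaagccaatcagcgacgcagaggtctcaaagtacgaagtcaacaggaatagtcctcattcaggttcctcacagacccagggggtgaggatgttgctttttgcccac

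The X and Y boxes are known as docking sites for the RFX, CREB and NF-Y factors that carry CIITA or NLRC5, and the interferon element as a site for factors that interferon activates. Of the 10 promoters printed, those of H2-DMa, Tap1 and H2-T23 had no pair, and in the others the parts of the first pair started 25 to 28 bases apart. H2-DMa, whose further promoter in the table also lacks it, was at 3.87 times the control mean in knockout 0 and Tap1 at 2.81 times, and Tapbp (1.87 times) and Erap1 (1.46 times) had no pair either. A table of 32851 promoters covered 34 members (16 of them tested) with 37 promoters. The pair, read on both strands, was in 19 of these 37 (51.4%) and in 1538 of all promoters (4.68%), and it was in 10 of the 16 tested members covered. In H2-D1, H2-DMb1 and H2-Eb1, overlapping X2-like matches share 1 Y-box core. The core alone was in 32 of the 37 (86.5%) and in 37.4% of all promoters.

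The interferon element was in 13 of the 37 member promoters (35.1%), 11 of 24 of the heavy chain genes, 2 of 4 of the accessory genes and 0 of 9 of the class II genes, against 14.8% of all promoters. A kappaB element, GGGATTCCC on either strand, left in lower case, was in 5 of the 37, those of H2-K1, H2-D1, H2-Q6 and H2-Q7, and in 0.353% of all promoters. The letters searched were chosen after the promoters had been read. A match is a string of letters in this window and not a shown site, and H2-T23 holds an interferon element too.

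Among class II genes, the chains came first in level after their chaperone. Cd74, the invariant chain, was at 215, 187 and 199.6 FPKM in controls 0 to 2, with 993 in knockout 0 and 238 in knockout 1. H2-Ab1, the beta chain of H2-A (chr17:34257689-34269419, mm10), was at 91.9, 87.3 and 88.4 FPKM in controls 0 to 2, with 367 in knockout 0 and 94.4 in knockout 1. Its partner alpha chain H2-Aa (chr17:34282744-34287823) was at 89.4, 83.5 and 77.4 FPKM in controls 0 to 2, with 328 in knockout 0 and 98.5 in knockout 1. In all 3, knockout 0 stood far above the controls (4.95, 4.11 and 3.93 times the control mean), and knockout 1 lay above the highest control (1.19, 1.06 and 1.18 times the control mean). H2-Eb1, the beta chain of H2-E (chr17:34305867-34316674), was at 49.7, 45.9 and 46.7 FPKM in controls 0 to 2, with 192 in knockout 0 and 57.8 in knockout 1, again 4.04 and 1.22 times the control mean. Across both knockouts none of the 4 passed (Cd74 log2 difference 1.28, SE 0.58, adjusted p = 0.210, and H2-Ab1 log2 difference 1.05, SE 0.54, adjusted p = 0.259, by limma). Knockout 0 alone passed for each of them (adjusted p = 0.00180 for Cd74, 0.00119 for H2-Ab1, 0.00217 for H2-Aa and 0.00126 for H2-Eb1).

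The peptide exchange factors showed the same order of libraries. H2-DMa, the alpha chain of H2-DM, was at 5.65, 6.22 and 5.88 FPKM in controls 0 to 2, with 22.9 in knockout 0 and 6.66 in knockout 1. H2-DMb1, a beta chain of H2-DM, was at 13.6, 18.8 and 14.9 FPKM in controls 0 to 2, with 49.3 in knockout 0 and 17.5 in knockout 1, and here knockout 1 lay inside the range of the controls. H2-DMb2, the second beta chain gene, was at 1.13, 0.963 and 1.22 FPKM in controls 0 to 2, with 14 in knockout 0 and 1.33 in knockout 1. Its 12.6-fold ratio in knockout 0 was the highest of the 29 tested members, and the fit to both knockouts did not pass (log2 difference 1.49, SE 0.75, adjusted p = 0.250). The ratio of H2-DMb2 to H2-DMb1 was 0.0836, 0.0511 and 0.0816 in control 0, 1 and 2, with 0.283 in knockout 0 and 0.0759 in knockout 1, so the share of the second gene was higher in knockout 0 than in the 4 other libraries. These genes share sequence: 31.4% of the 31-base words of H2-DMb1 transcripts and 36.4% of those of H2-DMb2 occur in another gene, and how the authors assigned such fragments is not stated in the labels used here. Ciita, the class II coactivator, was low, at 0.914, 0.801 and 0.961 FPKM in controls 0 to 2, with 3.30 in knockout 0 and 0.989 in knockout 1. Knockout 0 was at 3.70 times the control mean, and Ciita passed the filter only through that library. Over both knockouts the 8 class II genes had adjusted p from 0.189 for H2-Eb1 to 0.260 for Ciita.

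Class II members under the filter were H2-Oa and H2-Ob, the chains of the H2-DM inhibitor H2-O, H2-Eb2 and the pseudogene H2-Ea-ps. H2-Oa was at 0.573, 0.453 and 0.520 FPKM in controls 0 to 2, with 0.912 in knockout 0 and 0.588 in knockout 1. H2-Ob was at 0.563, 0.363 and 0.435 FPKM in controls 0 to 2, with 0.643 in knockout 0 and 0.543 in knockout 1. Knockout 0 was the highest library for both, by less than in H2-DM, while H2-Ea-ps was listed at 0 in all 5 libraries.

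Within a library the H2-A and H2-E chains kept close proportions, unlike the pair of H2-DM beta chains above. H2-Aa stood to H2-Ab1 as 0.972, 0.956 and 0.875 in control 0, 1 and 2, with 0.894 in knockout 0 and 1.04 in knockout 1, and H2-Eb1 to H2-Ab1 as 0.541, 0.526 and 0.528 in control 0, 1 and 2, with 0.522 in knockout 0 and 0.612 in knockout 1. For both ratios knockout 0 lay in or next to the range of the controls, and knockout 1 above it. Cd74 stood to H2-Ab1 as 2.34, 2.14 and 2.26 in control 0, 1 and 2, with 2.70 in knockout 0 and 2.52 in knockout 1, and both knockouts lay above the controls. By level per length in the controls the order was Cd74, H2-Ab1, H2-Aa, H2-Eb1, H2-DMb1, H2-DMa, H2-DMb2 and Ciita, and of these neighbours H2-Ab1 and H2-Aa overlapped between control libraries.

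Of the classical class I heavy chains, H2-K1 (chr17:33996017-34000347) was at 163, 164 and 160.0 FPKM in controls 0 to 2, with 428 in knockout 0 and 176 in knockout 1. H2-D1 (chr17:35262730-35267499) was at 151, 157 and 143 FPKM in controls 0 to 2, with 382 in knockout 0 and 141 in knockout 1. Knockout 0 was above every control for both (2.64 and 2.54 times the control mean, adjusted p = 0.00209 and 0.00334 for that library alone), whereas knockout 1 was above the controls for H2-K1 and below them for H2-D1. With both knockouts neither passed (H2-K1 log2 difference 0.76, SE 0.36, adjusted p = 0.227, and H2-D1 log2 difference 0.63, SE 0.40, adjusted p = 0.353). H2-L, a further classical locus that not all mouse strains carry, was at 0.397, 0.261 and 0.374 FPKM in controls 0 to 2, with 3.74 in knockout 0 and 0.686 in knockout 1. Its 10.9 and 1.99 times the control mean were the widest ratios among the tested heavy chains, from a low level. How much of the sequence of H2-L is shared with other genes was not read. The pseudogene H2-K2 was at 3.84, 4.44 and 3.69 FPKM in controls 0 to 2, with 3.94 in knockout 0 and 3.93 in knockout 1, and both knockouts lay inside the range of the controls.

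Among the non-classical genes, all 5 tested H2-Q genes were above every control in knockout 0, where 34.2% of all tested rows were. H2-Q4 (chr17:35379617-35385290) was at 26.1, 29.98 and 27.7 FPKM in controls 0 to 2, with 54.5 in knockout 0 and 33.3 in knockout 1. H2-Q5, listed as a polymorphic pseudogene in GENCODE M21, was at 3.90, 5.26 and 5.15 FPKM in controls 0 to 2, with 11.1 in knockout 0 and 7.61 in knockout 1. Both knockouts were above every control for these genes, and H2-Q5 had the smallest adjusted p of any member (H2-Q5 log2 difference 0.83, SE 0.19, adjusted p = 0.0624, and H2-Q4 log2 difference 0.59, SE 0.21, adjusted p = 0.138). H2-Q7 was at 19.1, 26.6 and 21.7 FPKM in controls 0 to 2, with 31.2 in knockout 0 and 18.5 in knockout 1. For H2-Q8 the values were 14.7, 18.5 and 13.5 FPKM in the controls and 24.1 and 14.8 FPKM in the knockouts, and for H2-Q9 4.02, 3.87 and 3.39 FPKM in the controls and 10.1 and 3.10 FPKM in the knockouts. For these 3 knockout 0 was the highest library (1.39, 1.55 and 2.69 times the control mean), and knockout 1 was the lowest for H2-Q7 and H2-Q9. Their sequences overlap, with 57.8% of the words of H2-Q5 and 39.1% of those of H2-Q7 found in another gene, so the split of fragments among H2-Q genes is uncertain.

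Of the H2-T genes, 0 of 5 tested reached 2 times the control mean in knockout 0. Of all tested rows 5.73% did, so this count did not stand out. H2-T23, the mouse Qa-1 gene, whose product shows signal peptides of other class I chains to NK cells, was at 59.6, 58.3 and 59.2 FPKM in controls 0 to 2, with 65.1 in knockout 0 and 68.9 in knockout 1 (log2 difference 0.18, SE 0.07, adjusted p = 0.156). Both knockouts exceeded every control, at 1.10 and 1.17 times the control mean, and it was the sole tested member with more in knockout 1 than in knockout 0. H2-T9 was at 36.7, 28.3 and 29.3 FPKM in controls 0 to 2, with 32.1 in knockout 0 and 28.3 in knockout 1. For H2-T22 the values were 14, 11 and 11.9 FPKM in the controls and 13 and 9.30 FPKM in the knockouts, and for H2-T24 2.88, 2.91 and 3.25 FPKM in the controls and 3.03 and 2.58 FPKM in the knockouts. In these 3 knockout 0 lay inside the range of the controls and knockout 1 below it, though H2-T9 was no longer below after rescaling to TPM. H2-T10, which with H2-T22 is known as a ligand of gamma delta T cells, is listed as a polymorphic pseudogene in GENCODE M21. It was at 1.21, 1.06 and 1.47 FPKM in controls 0 to 2, with 2.09 in knockout 0 and 1.23 in knockout 1. The 5 tested H2-T genes were at a median of 1.06 times the control mean in knockout 0, and the 5 tested H2-Q genes at 1.95 times. In H2-T22 and H2-T10, 51.0% and 50.7% of the words are shared with another gene. The ratio of H2-T23 to H2-K1 was 0.367, 0.357 and 0.370 in control 0, 1 and 2, with 0.152 in knockout 0 and 0.390 in knockout 1, so knockout 0 was below the other 4 libraries.

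H2-M3, which presents formylated peptides of bacteria and mitochondria, was the sole H2-M gene above the filter, at 1.85, 1.81 and 1.78 FPKM in controls 0 to 2, with 4.54 in knockout 0 and 2.47 in knockout 1 (log2 difference 0.64, SE 0.20, adjusted p = 0.116), and both knockouts were above every control. Below the filter were 17 heavy chain genes with means of 0 to 0.889 FPKM. Among these H2-M2 was at 0.216, 0.179 and 0.171 FPKM in controls 0 to 2, with 2.22 in knockout 0 and 0.620 in knockout 1, so that both knockouts lay above the controls. H2-Q10, a secreted class I chain made mainly by the liver, was at 0.703, 1.14 and 0.973 FPKM in controls 0 to 2, with 0.550 in knockout 0 and 0.480 in knockout 1, both below the controls.

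Every accessory gene of class I was above all controls in both knockouts, where 21.9% of all tested rows were. B2m, the common light chain (chr2:122147686-122153083), had the highest FPKM of all members in each library, at 515, 544 and 426 FPKM in controls 0 to 2, with 1192 in knockout 0 and 552 in knockout 1. Tap1, a subunit of the peptide transporter, was at 5.46, 5.64 and 5.34 FPKM in controls 0 to 2, with 15.4 in knockout 0 and 6.21 in knockout 1. Its partner Tap2 was at 9.62, 9.95 and 10.3 FPKM in controls 0 to 2, with 21.4 in knockout 0 and 11.4 in knockout 1. Knockout 0 was 2.41, 2.81 and 2.15 times the control mean for these 3, and knockout 1 1.12, 1.13 and 1.14 times. Tapbp, which encodes tapasin, was at 43.8, 40.3 and 46.6 FPKM in controls 0 to 2, with 81.7 in knockout 0 and 48.2 in knockout 1. Erap1, the trimming peptidase, was at 11.7, 10.5 and 11 FPKM in controls 0 to 2, with 16.1 in knockout 0 and 12.9 in knockout 1. It had the narrowest gap of the accessory genes in knockout 0 (1.46 times) and the smallest adjusted p of them over both knockouts (log2 difference 0.36, SE 0.11, adjusted p = 0.107). Nlrc5, the class I coactivator, was at 1.11, 1.17 and 1.19 FPKM in controls 0 to 2, with 2.79 in knockout 0 and 1.23 in knockout 1, 2.42 times the control mean in knockout 0. In knockout 0 the 6 genes ran from 1.46 times the control mean for Erap1 to 2.81 times for Tap1.

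**Figure D2:**
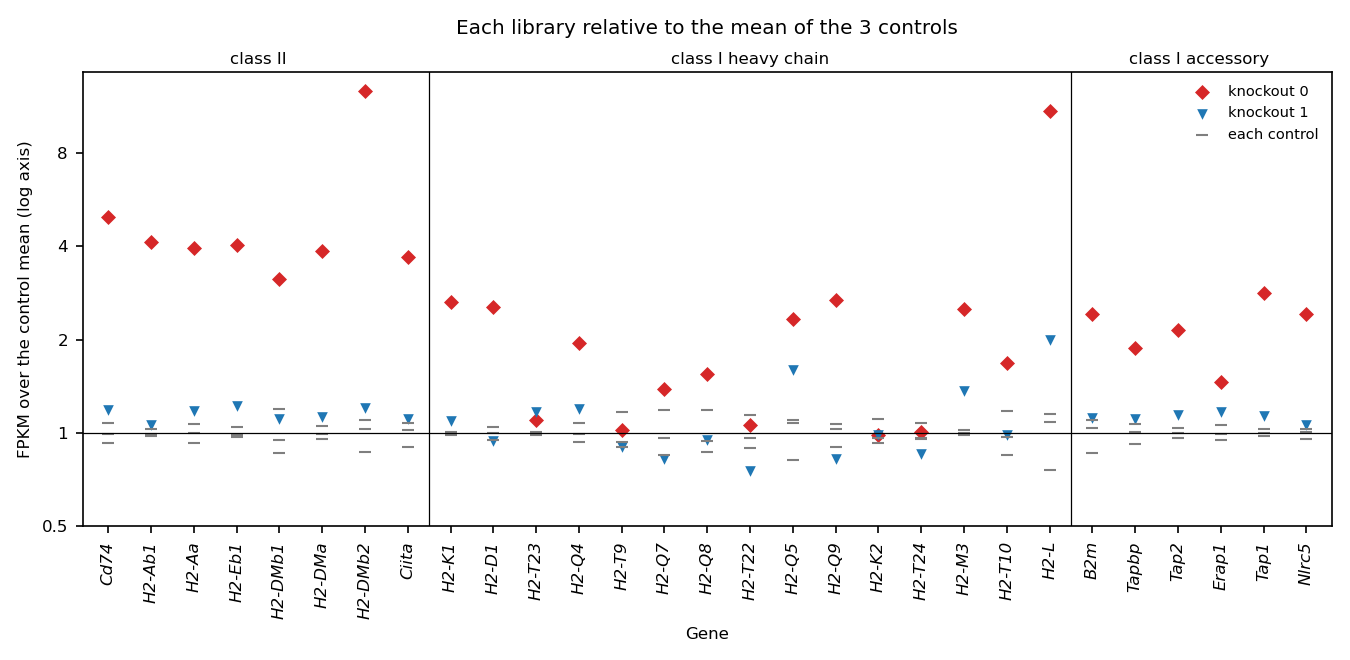
FPKM of each library divided by the mean of the 3 controls, on a log axis (y), for the 29 tested members (x), 1 mark per library. In knockout 0 the class II genes sit at 3.13 to 12.6 times the control mean, the accessory genes at 1.46 to 2.81 times and the heavy chain genes at 0.987 to 10.9 times, whereas knockout 1 spans 0.757 to 1.99 times over all members.

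Compared as classes, the median log2 difference from the control mean was 1.98 for class II genes, 0.96 for accessory genes and 0.61 for class I heavy chain genes in knockout 0, and -0.04 for all tested rows. In knockout 1 the medians were 0.15, 0.16 and -0.01, and 0.00 for all rows. The median of class II minus that of the heavy chains was 1.37 in knockout 0, 0.16 in knockout 1 and -0.05 to 0.03 in the controls. With both knockouts it was 0.80. These medians have no test of their own, and the gap between knockout 0 and knockout 1, of 1 library each, has no replicate check. At the level of single genes, H2-Ab1 stood to H2-K1 as 0.565, 0.534 and 0.553 in control 0, 1 and 2, with 0.857 in knockout 0 and 0.535 in knockout 1, and B2m to H2-K1 as 3.17, 3.33 and 2.66 in control 0, 1 and 2, with 2.78 in knockout 0 and 3.13 in knockout 1. The first ratio was higher in knockout 0 than in the 4 others, and the second lay within the range of the controls in both knockouts.

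Knockout 1 lay between 0.757 and 1.99 times the control mean in every tested member. It was above every control in 19 of 29 members (6 of 6 accessory, 7 of 8 class II and 6 of 15 heavy chain genes), but 38.4% of all rows were too. It was below every control in 6, all heavy chains (H2-D1, H2-T9, H2-Q7, H2-T22, H2-Q9 and H2-T24), where 38.5% of all rows were, and inside the range of the controls in 4. Both knockouts were above every control in the same 19, against 21.9% of all rows. After rescaling to TPM, which raises knockout 1, the counts were 20 above and 3 below (H2-Q9, H2-T22 and H2-T24), and 56.0% of all rows were above. The median class II ratio of knockout 1 was then 1.26 times and that of the heavy chains 1.08 times.

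Further genes of antigen processing showed a narrower difference. Of 26 listed, 24 were found and 23 tested: 0 passed with both knockouts, and 3 were higher and 1 lower at an unadjusted p under 0.05. At that p 12.5% of all rows were higher, and 2102 of the 12640 were lower, so these counts did not stand out. In knockout 0 the median log2 difference was 0.33. There 15 of the 23 were above every control and 4 below, where 34.2% of all rows were above and 5553 of the 12640 below. Cd86, 1 of the 15 above, reached the filter only through knockout 0. The immunoproteasome subunits were among the 15 above: Psmb8 was at 11.2, 11.1 and 11.4 FPKM in the controls and 33.9 and 11.2 FPKM in the knockouts, Psmb9 at 8.61, 8.16 and 7.94 FPKM in the controls and 19.4 and 7.74 FPKM in the knockouts and Psmb10 at 10.7, 11.3 and 11.3 FPKM in the controls and 24.4 and 11.1 FPKM in the knockouts. Here knockout 0 was 3.01, 2.36 and 2.20 times the control mean, while knockout 1 lay in or below the range of the controls. The smallest adjusted p were those of Cd1d1, which presents lipids (1.10, 1.03 and 1.11 FPKM in the controls and 1.74 and 1.88 FPKM in the knockouts, adjusted p = 0.0651), and Rfx5, a factor that binds the X box (5.54, 5.27 and 5.38 FPKM in the controls and 6.88 and 6.49 FPKM in the knockouts, adjusted p = 0.0814). Ctss, the protease that trims the invariant chain, was at 11.8, 10.4 and 11.8 FPKM in the controls and 67.5 and 19.9 FPKM in the knockouts (adjusted p = 0.103), and Nfyc, a subunit of NF-Y, at 46.7, 48.3 and 44 FPKM in the controls and 39.8 and 41.1 FPKM in the knockouts (adjusted p = 0.159). The first 3 were above every control in both knockouts, and Nfyc was below. Psmb8, Psmb9 and Psmb10 were named after their values were seen.

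Interferon response genes were likewise highest in knockout 0. Of 22 tested, 1 was called higher with both knockouts, Gbp3, an interferon-induced GTPase, at 4.79, 5.41 and 4.61 FPKM in controls 0 to 2, with 23 in knockout 0 and 14.2 in knockout 1 (log2 difference 1.69, SE 0.20, adjusted p = 0.0207), and 8 were higher at an unadjusted p under 0.05. Over all tested rows, 2.73% were called higher with both knockouts and 12.5% were higher at that unadjusted p. In knockout 0 all 22 were above every control, where 34.2% of all rows were (median log2 difference 1.03). Knockout 1 had 10 above and 6 below, where 38.4% and 38.5% of all rows were, and a median of 0.09. Irf1, which is induced by interferon gamma and acts on class I genes and on Ciita, was at 8.95, 9.08 and 9.24 FPKM in the controls and 21.6 and 11 FPKM in the knockouts (adjusted p = 0.150). Gbp2, another GTPase of this kind, was at 8.76, 7.20 and 7.98 FPKM in the controls and 46.9 and 10.2 FPKM in the knockouts (adjusted p = 0.195). Irf8, a factor of myeloid cells, was at 6.39, 6.90 and 6.29 FPKM in the controls and 14.2 and 9.45 FPKM in the knockouts (adjusted p = 0.0610). The chemokine Cxcl10 was at 5.22, 4.28 and 5.13 FPKM in the controls and 29.1 and 7.77 FPKM in the knockouts, and Ifngr2, a chain of the interferon gamma receptor, at 11.4, 11.8 and 13.1 FPKM in the controls and 26 and 14.5 FPKM in the knockouts (adjusted p = 0.132 and 0.148). In each of the interferon response genes named above, both knockouts lay above every control, with knockout 0 the higher. Some of these were chosen by adjusted p over both knockouts. The 6 genes below every control in knockout 1 were Igtp, Iigp1, Irf9, Irf7, Isg15 and Ifngr1, the partner chain of Ifngr2. In knockout 1 they ran from 0.763 times the control mean for Igtp to 0.955 times for Isg15, with Ifngr1 at 0.942 times.

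Markers of immune cells were highest in the same library as the class II genes. All 9 macrophage markers tested (of 10 listed) and all 5 general immune markers were above every control in both knockouts, where 21.9% of all rows were. Of these, Fcgr1 reached the filter only through knockout 0. Its place in the counts and median of knockout 0 is therefore no support for a difference there. The macrophage list summed to 91.2 to 101.4 FPKM over the controls, with 386 and 134 in the knockouts. The general list summed to 35.6 to 37.7, 147 and 48.6. Their median log2 differences were 1.90 and 1.80 in knockout 0, beside 1.98 for the class II genes, and 0.31 and 0.40 in knockout 1. None of these genes passed with both knockouts, where 2.73% of all tested rows were called higher. By control mean ± SD (n = 3), knockout 0 and knockout 1, Cd68 was at 3.09 ± 0.190, 14.3 and 4.06 FPKM, Lyz2 at 15.7 ± 2.23, 103 and 32.9, Cx3cr1 at 1.63 ± 0.0156, 6.63 and 3.19, C1qc at 15.2 ± 0.386, 61.6 and 20.3 and Mrc1 at 0.896 ± 0.0192, 4.05 and 1.35. Csf1r, the receptor that macrophages depend on, differed less, at 23.3 ± 2.07, 28.8 and 26.7. Of the general markers, Ptprc (CD45) was at 2.45 ± 0.143, 7.37 and 3.76, Coro1a at 5.45 ± 0.0701, 19.1 and 7.83, Laptm5 at 6.37 ± 0.557, 28.7 and 8.72 and Fcer1g at 11.1 ± 0.604, 49.4 and 14.5. The part of these cells in the class II result was not tested.

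Set against single markers, H2-Ab1 had a ratio to Cd68 of 29.1, 27 and 30.8 in control 0, 1 and 2, with 25.7 in knockout 0 and 23.3 in knockout 1, both below the controls. Its ratio to Ptprc was 35.3, 36.1 and 38.1 in control 0, 1 and 2, with 49.8 in knockout 0 and 25.1 in knockout 1, above the controls in knockout 0 and below them in knockout 1. To Csf1r the ratio was 3.65, 4.14 and 3.73 in control 0, 1 and 2, with 12.8 in knockout 0 and 3.54 in knockout 1, so knockout 0 stood far above the other libraries. To Itgax (CD11c), an integrin of dendritic cells and macrophages, it was 141, 149 and 143 in control 0, 1 and 2, with 71.2 in knockout 0 and 79 in knockout 1, lower in both knockouts.

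Of 8 dendritic cell markers, 5 were tested. All 5 were above every control in knockout 0 and 3 in knockout 1, where 34.2% and 38.4% of all rows were. Itgax and Cd209a reached the filter only through knockout 0. Their places in the count and median of knockout 0 are therefore no support for a difference there. The median log2 differences were 0.44 and 0.22. The list summed to 5.32 to 6.71 FPKM over the controls and to 15.1 and 7.97 in the knockouts. Itgax was at 0.619 ± 0.0321, 5.15 and 1.20 (control mean ± SD with n = 3, knockout 0 and knockout 1), Batf3 at 1.83 ± 0.288, 2.84 and 2.29, Zbtb46 at 1.25 ± 0.0308, 1.37 and 1.98 and Cd209a at 0.792 ± 0.150, 2.91 and 0.704, while Flt3 was low at 0.179 ± 0.0496, 0.410 and 0.216. B cell markers were near 0 throughout. Of 6, 5 were found and 1 tested, and the list summed to 1.59 to 1.94 FPKM in the controls and to 2.70 and 2.22 in the knockouts, with Cd79b at 1.04 ± 0.110, 1.42 and 1.24, Cd79a at 0.369 ± 0.0710, 0.836 and 0.570 and Ms4a1 at 0.105 ± 0.0197, 0.178 and 0.163. T and NK cell markers (7 of 8 found, 3 tested) summed to 3.35 to 4.19, 11.5 and 5.45 FPKM. Of these, Cd3e was at 0.661 ± 0.102, 2.07 and 1.00, Cd3g at 0.594 ± 0.105, 2.62 and 1.11 and Nkg7 at 0.968 ± 0.0630, 2.81 and 1.09. All 3 reached the filter only through knockout 0. Endothelium, which carries class I, had 6 markers tested, with median log2 differences of 0.17 and 0.11 in the knockouts. Among them Pecam1 was at 17.2 ± 0.416, 21.3 and 20.3, Cdh5 at 9.80 ± 0.384, 13.5 and 10.9, Kdr at 6.99 ± 0.525, 7.19 and 12.5 and Tie1 at 9.33 ± 0.503, 9.74 and 9.88. Egfl7, at 24.8 ± 2.33, 34.5 and 22.7, was above every control in knockout 0 and below in knockout 1. Emcn, at 49.9 ± 2.10, 44.6 and 50.8, was below every control in knockout 0 and inside their range in knockout 1. The 3 tested proximal tubule markers had medians of -0.22 and -0.03 (Cubn at 39.8 ± 2.04, 50.9 and 61.1, Slc22a6 at 293 ± 28.9, 246 and 165 and Slc5a2 at 106 ± 12.1, 89.9 and 103). The 5 of other tubules had medians of -0.39 and 0.28, with Slc12a1 at 245 ± 47.9, 114 and 294, Aqp2 at 318 ± 30.7, 248 and 351 and Atp6v1b1 at 76.7 ± 11.9, 46.7 and 66.7. Umod, listed at 0 in the controls, was at 784 and 1144 FPKM in the knockouts. Their part in the values of the MHC genes was not tested.

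**Figure D3:**
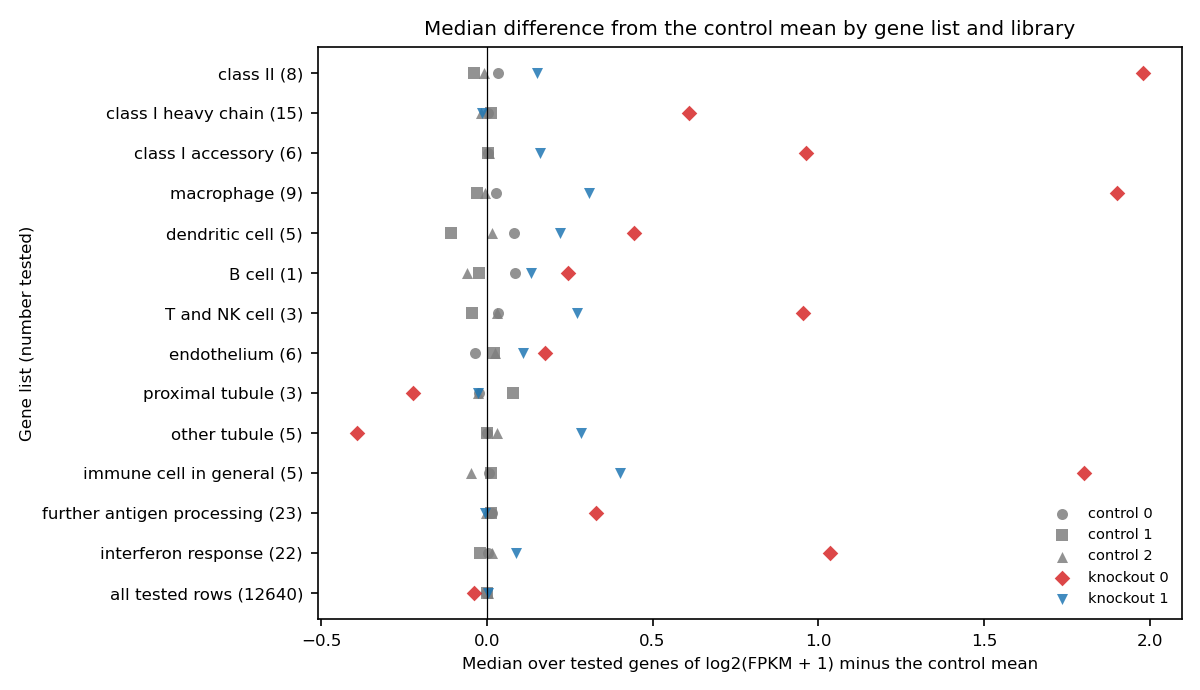
Median over the tested genes of each list of the difference in log2(FPKM + 1) from the control mean (x), by list (y) and library (points). In knockout 0 the class II genes (1.98), macrophage markers (1.90) and general immune markers (1.80) lie farthest to the right, above accessory genes (0.96) and heavy chains (0.61), and in knockout 1 no MHC class exceeds 0.16.

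By position, 19 of the 29 tested members stood among 85 other tested genes in the H2 region of chromosome 17. The median log2 difference of those other genes was 0.01 in knockout 0 and -0.08 in knockout 1. Among them were Psmb8 and Psmb9, which lie beside Tap1 and Tap2, and 17 of the 85 were called higher in knockout 0 alone, where 11.5% of all rows were. The plot of the region in gene order shows both kinds of gene.

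**Figure D4:**
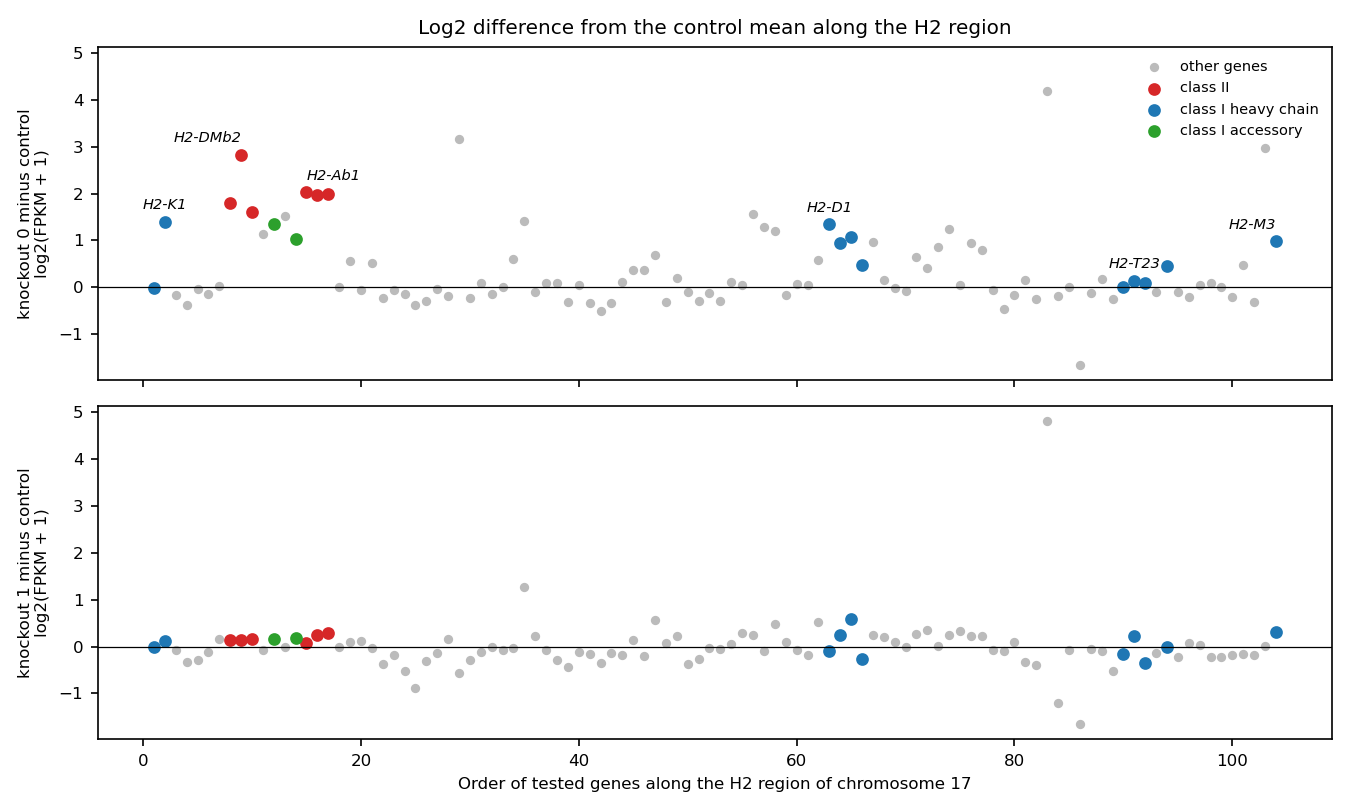
Difference in log2(FPKM + 1) from the control mean (y) for the 104 tested genes of the H2 region of mouse chromosome 17, in their order along it (x), with knockout 0 in the upper and knockout 1 in the lower panel and the 19 members among them in colour. In knockout 0 members reach up to 2.83, and other genes have a median of 0.01 and reach 4.18 (Mir1894, listed at 0 in the controls), 3.15 (C4b) and 2.98 (Ubd). In knockout 1 the members lie between -0.36 and 0.59.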

How the data were processed

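RNA was extracted with TRIzol from whole kidney, and 1 µg went into an Illumina mRNA-seq library, per the labels' protocols. The authors deposited FPKM, 1 column per library (0 columns stayed without a library), with bcl2fastq and mm10 named in the submitters' processing notes. Not given in the sources used here: aligner, FPKM program, annotation and strandedness. FPKM carry no depth. From the most common ratio of low values, relative depth (control 0 as 1) was 1.09 for control 1, 0.67 for control 2, 0.569 for knockout 0 and 1.34 for knockout 1, shared by only 6.98 to 14.0% of low rows, so this is a rough guide to precision.

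Because FPKM are not counts, limma 3.58.1 (R 4.3.3, variance trend, two-sided) was run on log2(FPKM + 1) over the 12640 rows whose mean reached 1 FPKM, with Benjamini-Hochberg adjustment over all of them and a threshold of 0.05. Fold changes on this scale understate low genes. Adjusted p-values are from this test, or from the same fit with 1 knockout left out. An exact permutation test of 3 against 2 libraries cannot go below 0.1 and was not used. The script was tested on simulated data. All tested members were named, with up to 4 genes of each further list by adjusted p and a set of defining markers. H2-M2, H2-Q10, H2-Oa, H2-Ob, the Psmb genes, Egfl7, Emcn and the interferon genes below every control in knockout 1 were named after their values were seen. A gene that the naming rule takes is not reported here. The members and lists were chosen with earlier results of these data known.

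Positions are those of GENCODE M21, which held 46 of the 50 members. H2-L, H2-Q8, H2-Q9 and H2-T9 were not matched in it, so neither their positions nor their shared sequence were read. Shared sequence is the percentage of a gene's 31-base transcript words that another gene's transcripts also hold. Software was Python 3.11.15 with matplotlib 3.10.9, pandas 2.3.3 and numpy 2.4.6.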

Additional observations from a re-analysis of the deposited data

How the results depend on the processing

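Leaving out 1 library decided most values. Members called higher ranged from 0 to 21 over the 5 such fits (heavy chain 0 to 7, accessory 0 to 6, class II 0 to 8), with the highest counts without knockout 1 and 0 without knockout 0, and all genes called ranged from 36 to 2599 (37 without control 0, 155 without control 1, 36 without control 2, 1054 without knockout 0 and 2599 without knockout 1, against 802). The median log2 difference ranged from 0.15 to 1.98 for class II, 0.16 to 0.96 for accessory and -0.014 to 0.61 for heavy chain genes, and their class II minus class I difference from 0.16 to 1.37. Single heavy chains whose sign turned in such a fit ranged from -0.088 to 1.34 for H2-D1, -0.26 to 0.47 for H2-Q7, -0.061 to 0.61 for H2-Q8, -0.21 to 1.22 for H2-Q9, -0.0081 to 0.46 for H2-T10, -0.36 to 0.086 for H2-T22, -0.16 to 0.0073 for H2-T24, -0.14 to 0.062 for H2-T9 and -0.056 to 0.050 for H2-K2. Rescaling to TPM called 1 member higher, the heavy chain gene H2-Q5, and turned H2-T9 to 0.029 and H2-K2 to 0.059 (0.0048 with median-of-ratios scaling). An adjusted p under 0.1 also called 1 member, the heavy chain H2-Q5, and 2044 genes in all. With no filter, 247 genes were called and the heavy chain median was 0.018, because 17 more low members entered it. The replicate block called 28 genes and 0 members. Samples of the same number shared little of their deviations from the group mean (correlations 0.09 for number 0 and 0.0024 for number 1). With 2 knockouts the deviations mirror each other, so this check cannot decide on pairing. This block therefore stands only as an alternative. The other alternatives, a pseudocount of 0.1, a mean FPKM of at least 5, quantile normalization, no variance trend, robust variances and rows listed at 0 left out, called 0 members and turned no member's direction; neither did leaving out the 3 tested members with over 50% of shared words, an alternative chosen after seeing the data. The alternative on shared words could not cover H2-L, H2-Q8, H2-Q9 and H2-T9, whose shared sequence was not read. Low-level members such as Ciita, Nlrc5 and H2-L are limited by depth, which the table does not give.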

Other observations

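In the H2 region of mouse chromosome 17 (33974659 to 37483552, mm10), 85 tested genes fall outside the symbol rule. With both knockouts 2 of them were called higher by limma at an adjusted p under 0.05, C2 and the microRNA gene Mir1894, and 1 lower, Hspa1a. Over all tested rows 2.73% were called higher and 3.62% lower, so these counts stood no higher than the background. Mir1894 was listed at exactly 0 in all 3 controls, which can be a failed estimate, and at 17.1 and 26.9 FPKM in the knockouts. C2, a protease of the classical complement path, was at 17.3, 19.6 and 18.9 FPKM in controls 0 to 2, with 51.5 in knockout 0 and 46.1 in knockout 1 (log2 difference 1.34, SE 0.09, adjusted p = 0.00468), and both knockouts stood far above the controls. C4b, its partner in the complement path, was at 1.69, 2.33 and 2.06 FPKM in controls 0 to 2, with 25.9 in knockout 0 and 1.04 in knockout 1, so knockout 0 lay above and knockout 1 below every control. Ubd, a ubiquitin-like protein induced by interferon gamma, was at 2.37, 1.38 and 1.86 FPKM in controls 0 to 2, with 21.3 in knockout 0 and 1.85 in knockout 1. Aif1, a marker of macrophages, was at 2.99, 3.46 and 3.34 FPKM in controls 0 to 2, with 11.5 in knockout 0 and 4.02 in knockout 1, and Ltb, a lymphotoxin chain, at 0.663, 0.641 and 0.802 FPKM in controls 0 to 2, with 2.91 in knockout 0 and 1.36 in knockout 1. These neighbours were named after their values were seen, and Ltb reached the filter only through knockout 0.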
